A study of Homo sapiens with 6 samples.

Results

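The tubulin genes were chosen by name: TUBA1A, TUBA1B, TUBA1C and TUBA4A for alpha-tubulin, TUBB, TUBB2A, TUBB2B, TUBB4B and TUBB6 for beta-tubulin, and TUBG1 for gamma-tubulin. Of these 10 genes, 8 were measured, each with a row among the 8121 genes of the translational efficiency table and among the 9570 mRNAs of the ribosome occupancy table. TUBA4A and TUBB had no row in either table, so no value is given for them. Ribosome profiling, in which the mRNA fragments shielded by ribosomes from digestion (RPFs) are sequenced, was performed in HEK293, a line derived from human embryonic kidney, and total RNA was sequenced from a portion of each lysate kept before digestion. All 6 libraries, 3 of RPFs and 3 of total RNA, are labelled as treated with control siRNA, all cells were given cycloheximide before lysis to hold ribosomes on the mRNA, and there is a single condition. The methods state that the preparation was repeated in triplicate. Neither they nor the labels say that the 3 replicates came from separate cultures, so their spread may be technical. Of the 6 genes listed for HEK293 cells, VIM, NEFM, NEFL and CDH2 were present in both tables and PAX2 and PAX8 in neither, while none of the 6 markers of blood, liver, heart or glia was present. Presence is all that was read here, because neither table gives mRNA levels directly.

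Alpha- and beta-tubulin form a heterodimer, and heterodimers join end to end into the protofilaments of microtubules, which carry transport in the cell and pull chromosomes apart in mitosis. Gamma-tubulin does not build the wall of the microtubule but sits in a ring that starts its growth. Cells adjust tubulin synthesis to the amount of free heterodimer by a co-translational decay of tubulin mRNAs, in which the TTC5 protein recognises the first amino acids of the nascent chain as it leaves the ribosome.

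The 10 genes chosen lie on 6 chromosomes, with the unmeasured TUBA4A on chromosome 2 and TUBB on chromosome 6. On GRCh37, the build of hg19, TUBA1A (chr12:49578469-49582863, minus strand), TUBA1B (chr12:49521565-49525180, minus strand) and TUBA1C (chr12:49582519-49668383, plus strand) are neighbours. TUBB2A (chr6:3153731-3157778) and TUBB2B (chr6:3223558-3231964) stand side by side on the minus strand, while TUBB4B (chr9:140135739-140138159), TUBB6 (chr18:12307668-12344319) and TUBG1 (chr17:40761659-40767256) lie on the plus strand. The annotated transcripts of the alpha and beta genes have 4 exons and that of TUBG1 has 11. The coding sequence (CDS) had 452 codons in TUBA1A, TUBA1B and TUBG1, 450 in TUBA1C, 446 in TUBB2A, TUBB2B and TUBB4B, and 447 in TUBB6, stop codon included. The gene spans of TUBA1A and TUBA1C overlap on opposite strands.

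The coding sequences are close copies of each other. TUBA1A and TUBA1B had the same base at 97.2% of CDS positions, TUBA1A and TUBA1C at 96.1% and TUBA1B and TUBA1C at 97.0%. TUBB2A and TUBB2B were identical at 98.1% of positions, whereas TUBB4B shared 87.2% and TUBB6 86.0% with TUBB2A. TUBG1 was 94.7% identical to its paralog TUBG2. This likeness decides how many of the short RPFs of each mRNA can be told apart from those of another. It is easiest to see where most RPFs lay. The windows below are 30 nt of CDS from 12 nt before a codon of high occupancy, which is about the length of an RPF with its ribosome at that codon, and all lie within 1 exon. In alpha-tubulin codon 70 was among the 3 highest codons of every mRNA, and its window was the same in TUBA1A (chr12:49580395-49580424), TUBA1B (chr12:49523284-49523313) and TUBA1C (chr12:49663440-49663469), each time in exon 2. The capitals mark codon 70 in the TUBA1A line and the bases that differ from TUBA1A in the TUBA4A line (chr2:220116731-220116760), an mRNA that was not measured:
TUBA1A, TUBA1B and TUBA1C, codon 70: gtgtttgtagacTTGgaacccacagtcatt
TUBA4A, codon 70: gtTtttgtGgaTCtggaGccTacGgtcatt

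In beta-tubulin codon 413 was the highest codon of all 4 measured member mRNAs. Its windows are shown with codon 413 in capitals for TUBB2A (chr6:3154181-3154210) and, for TUBB4B (chr9:140137895-140137924), TUBB6 (chr18:12326013-12326042) and the unmeasured TUBB (chr6:30692064-30692093), with the bases that differ from TUBB2A in capitals. All are in exon 4, and TUBB2B (chr6:3225069-3225098) has the letters of TUBB2A:
TUBB2A and TUBB2B, codon 413: accgaggccgagAGCaacatgaacgacctg
TUBB4B, codon 413: accgaggccgagagcaacatgaaTgacctg
TUBB6, codon 413: accgaggcGgagagcaacatgaacgacctg
TUBB, codon 413: accgaggcTgagagcaacatgaacgacctC

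Codon 335 separates the same genes more clearly. The windows in exon 4 of TUBB2A (chr6:3154415-3154444), TUBB4B (chr9:140137661-140137690) and TUBB6 (chr18:12325779-12325808) are given in the same way, with codon 335 in capitals in the first line and the differing bases in capitals in the others:
TUBB2A and TUBB2B, codon 335: ctcaacgtgcagAACaagaacagcagctac
TUBB4B, codon 335: ctTaaTgtCcaAaacaaAaacagcagctaT
TUBB6, codon 335: ctGGCcAtCcagaGTaagaacagcagctac

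Translational efficiency, the authors' measure of RPFs relative to total RNA for each gene in each replicate, whose exact formula is not stated, is shown first because its replicates are given. The means of the tubulin genes ran from 0.251 in TUBB6 to 3.30 in TUBA1C. Across all genes the median was 0.385. With limma on log2(value + 0.01), 7 of the 8 tubulin genes were above the median of all values and TUBB6 was below it at an adjusted p below 0.05. The same test called 44.7% of all genes above and 44.6% below the median, so that a call by itself sets few genes apart, and the size of the ratio says more. The median over the 8 tubulin genes was 1.97.

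**Figure D1:**
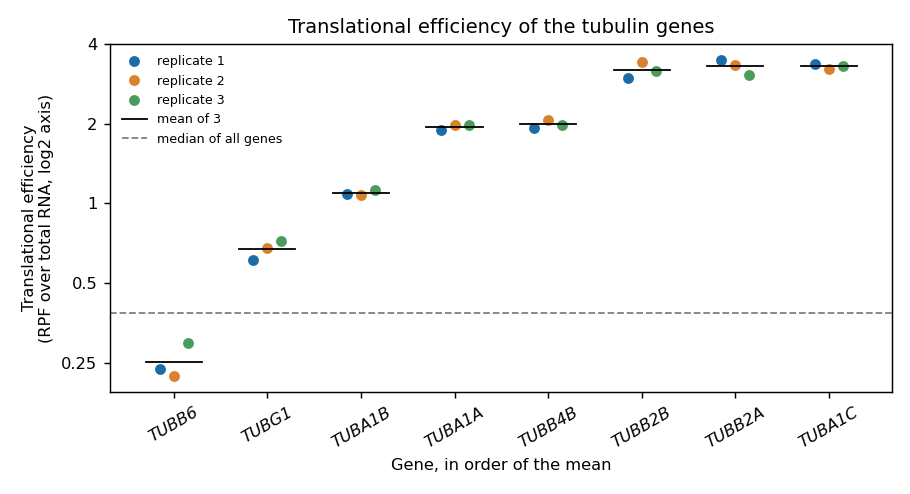
Translational efficiency (RPF over total RNA, log2 axis) of the 8 measured tubulin genes, ordered by their mean. Points are the 3 replicates, short lines their mean, and the dashed line is the median of all genes (0.385). TUBB6 lies below the dashed line in every replicate and the other 7 genes lie above it.

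Among the alpha-tubulins, TUBA1C had translational efficiencies of 3.37, 3.21 and 3.30 in replicates 1, 2 and 3 (mean 3.30 ± 0.0813, SD, n = 3), higher than 95.9% of all genes. TUBA1A had 1.90, 1.97 and 1.98 (1.95 ± 0.0461). TUBA1B had 1.08, 1.08 and 1.12 (1.09 ± 0.0251), the lowest of the alpha-tubulins. The ranges of the 3 alpha genes did not overlap. Of their CDS reads in the occupancy values below, 87.2% to 94.1% fell on sequence that another gene also holds. Whether such reads enter their translational efficiencies was not tested. On the log2(value + 0.01) scale, TUBA1C exceeded the median of all genes by 3.07 ± 0.05 (SE, adjusted p = 1.31e-06), TUBA1A by 2.32 ± 0.05 (adjusted p = 1.86e-06) and TUBA1B by 1.49 ± 0.05 (adjusted p = 5.60e-06).

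Among the beta-tubulins of the 8 measured genes, the neighbouring genes TUBB2A and TUBB2B were the highest. TUBB2A had translational efficiencies of 3.49, 3.33 and 3.06 (3.29 ± 0.217, SD, n = 3). TUBB2B had 2.99, 3.44 and 3.16 (3.20 ± 0.226). Their ranges overlapped with each other, and both also overlapped with that of TUBA1C. TUBB4B, a beta-tubulin made in many tissues, had 1.93, 2.06 and 1.98 (1.99 ± 0.0665), a range that overlapped with that of TUBA1A. TUBB6 had 0.236, 0.222 and 0.296 (0.251 ± 0.0392), which placed it above only 33.5% of all genes. Many CDS reads in the occupancy values below fell on sequence that another gene also holds. The share was 94.3% in TUBB2A, 90.6% in TUBB2B, 47.1% in TUBB6 and 39.8% in TUBB4B. Whether such reads enter the translational efficiencies was not tested. On the log2(value + 0.01) scale, TUBB2A exceeded the median by 3.07 ± 0.06 (SE, adjusted p = 1.62e-06), TUBB2B by 3.02 ± 0.06 (adjusted p = 1.66e-06) and TUBB4B by 2.35 ± 0.05 (adjusted p = 1.94e-06), while TUBB6 fell below it with a log2 difference of -0.60 ± 0.09 (adjusted p = 0.00189).

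TUBG1, the nucleating subunit, had translational efficiencies of 0.610, 0.679 and 0.722 (0.670 ± 0.0563, SD, n = 3) and lay between TUBB6 and TUBA1B without overlap with either. Its log2 difference from the median was 0.79 ± 0.07 (SE, adjusted p = 0.000155). In ascending order the genes were TUBB6, TUBG1, TUBA1B, TUBA1A, TUBB4B, TUBB2B, TUBB2A and TUBA1C. Of the 7 pairs of neighbours in this order, 4 had ranges that did not overlap: TUBB6 and TUBG1, TUBG1 and TUBA1B, TUBA1B and TUBA1A, and TUBB4B and TUBB2B. With 3 values a side no exact test of a pair could pass 0.05, so the ranges are given as a description.

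Of the 12 other tubulin genes listed, 5 were in the translational efficiency table. TUBB4A, a beta-tubulin of the nervous system, had the highest value, at 20.8, 17.0 and 10.9 (16.2 ± 4.95, SD, n = 3), with no row for its occupancy. Its 30-nt window equals that of TUBB4B at codon 413 and those of TUBB2A, TUBB2B, TUBB3 and TUBB4B at codon 382. Whether reads of these paralogs enter its translational efficiency was not tested. TUBG2 had 2.49 ± 0.0898, above its paralog TUBG1, and TUBB3, known as a neuronal beta-tubulin, had 0.994 ± 0.0576. At codons that tell them from their paralogs, described below, TUBG2 held 15 RPF reads and TUBB3 112. The delta- and epsilon-tubulins of centrioles were low, with TUBD1 at 0.203 ± 0.00976 and TUBE1 at 0.237 ± 0.00550. By the same test TUBB4A, TUBG2 and TUBB3 were above the median of all genes, and TUBD1 and TUBE1 below it.

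The occupancy table shows where on each mRNA these ribosomes were. For each codon it holds the in-frame RPFs of 28 to 30 nt, normalized by the authors to library size and to the abundance of the mRNA (TPM), with the 3 libraries combined. Every value of the tubulin mRNAs was the sum of whole numbers of 3 fixed steps, each step being the worth of 1 read in 1 library, and each value had 1 solution at a relative tolerance of 3e-14. The reads of each library were therefore recovered for every codon. The libraries are numbered here by the size of their step and were not matched to the replicate numbers. The CDS held from 8872 reads, in TUBG1, to 262532 reads, in TUBA1B, over the 3 libraries.

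**Figure D2:**
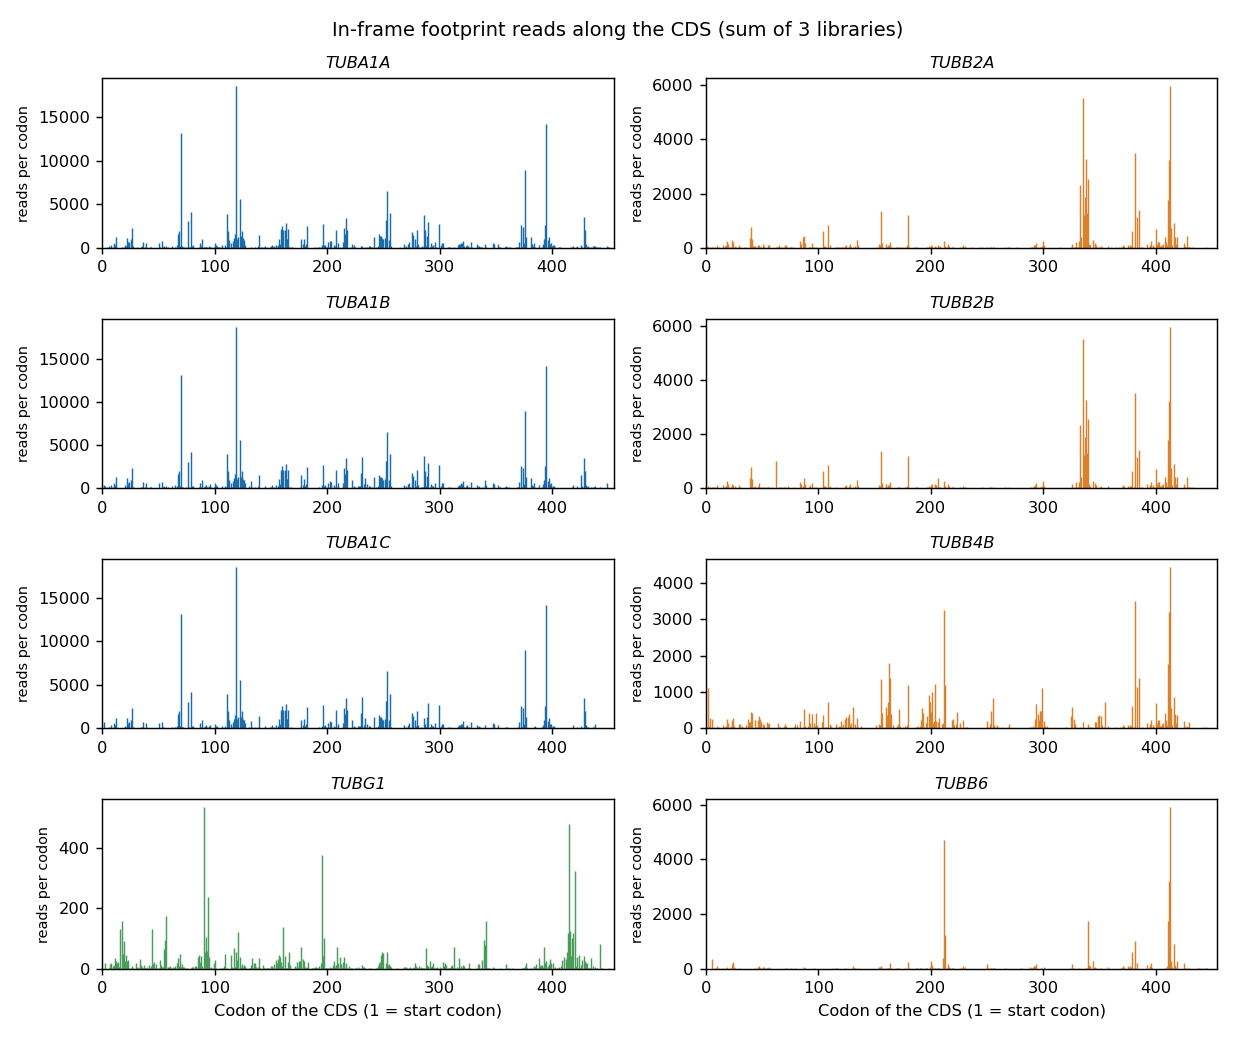
Recovered in-frame RPF reads per codon (sum of 3 libraries) along the CDS of the 8 measured tubulin mRNAs, alpha in blue, beta in orange and gamma in green, each panel with its own linear axis. The alpha mRNAs share tall lines at codons 70, 119 and 395 and the beta mRNAs share one at codon 413. At codons 70 and 395 the alpha mRNAs held equal reads in every library, as did TUBB2A and TUBB2B at codon 413.

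RPFs were concentrated at a few codons that recurred at the same position within each family, many of them with equal reads, as given below. In TUBA1A, TUBA1B and TUBA1C the 3 highest codons were 119 (TTG), 395 (TTT) and 70 (TTG). In TUBB2A and TUBB2B they were 413 (AGC), 335 (AAC) and 382 (TCC), in TUBB4B 413, 382 and 212 (TTC), and in TUBB6 413, 212 and 412 (GAG). TUBG1 had none of these positions, with its highest codons at 90 (AAC), 415 (AAG) and 195 (CTG). The 3 highest codons held 44.7% of the occupancy of TUBB6, 24.4% of TUBB2A and 24.2% of TUBB2B, against 17.9% to 18.9% in the alpha mRNAs, 15.6% in TUBG1 and 15.3% in TUBB4B. Across the 1271 mRNAs with a CDS of 400 to 500 codons the median share was 11.4%. Codon 413 alone held 19.2% ± 0.892 of the CDS reads of TUBB6 (SD over 3 libraries), 9.63% ± 0.475 of those of TUBB2A and 5.95% ± 0.534 of those of TUBB4B.

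Within a family many of these peaks held the same number of reads. At codon 70, TUBA1A, TUBA1B and TUBA1C each held 5383, 4638 and 3153 reads in the 3 libraries. At codon 395 each held 6616, 4011 and 3594 reads. At codon 119 TUBA1A and TUBA1C, with equal windows, both held 18523 reads over the 3 libraries, and TUBA1B, whose window differs from theirs by 1 base, held 18761. The occupancy at codon 70 nevertheless stood at 14.3 in TUBA1A, 14.0 in TUBA1C and 3.21 in TUBA1B, because equal reads were divided by different mRNA abundances.

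The beta mRNAs showed the same at codon 413, where TUBB2A and TUBB2B each held 2583, 1998 and 1373 reads. TUBB6, 1 base away, held 2561, 1976 and 1364 reads there. TUBB4B, also 1 base away but at another position of the window, held 2038, 1469 and 919. At codon 382 TUBB2A, TUBB2B and TUBB4B have 1 window and each held 3503 reads in all, against 1012 in TUBB6, whose window differs by 2 bases. Codon 335 was different: TUBB2A and TUBB2B each held 5517 reads, while TUBB4B, with 6 differing bases, held 172 and TUBB6, with 7, held 2. The unmeasured TUBB differs from TUBB2A by 1 base at codon 335 and by 2 bases at codon 413. In the gamma family TUBG1 and TUBG2 have the same window at codon 90, and both held 216, 215 and 102 reads.

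In reads, the peak at codon 212 was large in TUBB4B and TUBB6 and small in TUBB2A and TUBB2B. Here the window in TUBB4B (chr9:140137292-140137321) differs from that of every other beta-tubulin gene by at least 4 bases, and it is shown beside TUBB2A (chr6:3154784-3154813), TUBB6 (chr18:12325410-12325439) and TUBB (chr6:30691461-30691490). Codon 212 is in capitals in the TUBB2A line, and the bases that differ from TUBB2A are in capitals in the others:
TUBB2A and TUBB2B, codon 212: tatgacatctgcTTCcgcaccctgaagctg
TUBB4B, codon 212: taCgacatTtgcttcAgAaccctAaagctg
TUBB6, codon 212: tatgacatctgcttccgcacTctgaagctg
TUBB, codon 212: tatgaTatctgcttccgcacTctgaagctg

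TUBB4B held 1524, 983 and 732 reads at codon 212 in the 3 libraries, and TUBB6 held 2139, 1604 and 980. TUBB2A and TUBB2B each held 249 reads in all at this codon. Divided by mRNA abundance, the occupancy there was 14.2 in TUBB6, 2.19 in TUBB2A, 1.69 in TUBB4B and 1.16 in TUBB2B. The TUBB6 window is 1 base from those of TUBB2A, TUBB2B and TUBB, whereas that of TUBB4B can be told from all of them. Of the 3 highest codons of the 8 mRNAs, codon 212 of TUBB4B was the only one whose window differed by more than 2 bases from every other tubulin gene of its family.

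The reads in common were then counted over the whole CDS. All pairs of mRNAs within a family were compared at the same codon number, TUBB3 and TUBG2 included, wherever at least 1 mRNA of the pair held 10 or more reads. In 1148 of 1148 codon pairs with equal 30-nt windows the read numbers were equal in all 3 libraries. With 1 differing base the share of equal pairs was 34.8% of 509, with 2 it was 4.96% of 504, and with 3 or more it was 0%. The median of the lower over the higher read number of a pair went from 1 for equal windows to 0.990, 0.449, 0.138 and 0.0579 for 1, 2, 3 and 4 differing bases. Codon pairs share mRNAs and are not independent, so no test was made. TUBB2A and TUBB2B held equal numbers of at least 10 reads at 196 of 445 codons, and these held 89.7% of the reads of TUBB2A. TUBA1A and TUBA1B did so at 251 of 451 codons with 74.2% of the reads of TUBA1A.

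**Figure D3:**
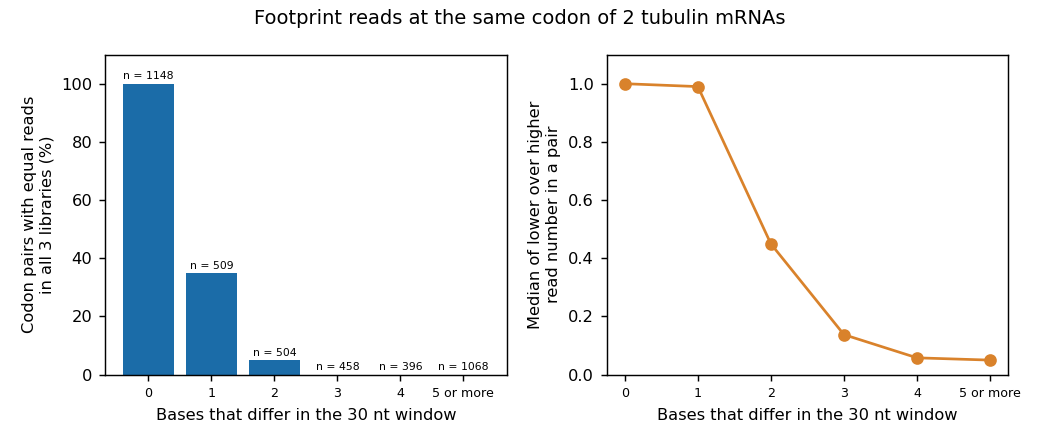
Recovered RPF reads at the same codon of a pair of tubulin mRNAs of 1 family, by the number of bases that differ between their 30-nt windows. Left, percentage of codon pairs with equal reads in all 3 libraries, with the number of codon pairs above each bar, falling from 100 to 0. Right, median of the lower over the higher read number in a pair, falling from 1 to 0.0501.

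Mean CDS occupancy, the average of the deposited values over all codons, was above the median of all mRNAs for every measured tubulin mRNA, with reads on shared sequence included. TUBB2A had 1.20, 1.20 and 1.27 in libraries 1, 2 and 3 (mean 1.22 ± 0.0442, SD, n = 3), TUBB2B 0.652 ± 0.0218, TUBA1C 0.590 ± 0.0177 and TUBA1A 0.588 ± 0.0103. Below them stood TUBB6 with 0.210 ± 0.00757, TUBA1B with 0.140 ± 0.00146, TUBG1 with 0.0879 ± 0.00452 and TUBB4B with 0.0861 ± 0.00251. The median over all mRNAs was 0.0450, with the middle 50% between 0.0248 and 0.0780. Thus 8 of 8 tubulin mRNAs were above it, where 50% of all mRNAs are by construction, and their median was 0.399. The 8 values are not separate counts, since mRNAs with equal windows held equal reads there. At distinct codons, described below, TUBB6 had 0.0247, below 0.0450. The order of the means over all codons was not that of translational efficiency. TUBB4B was the lowest by occupancy, and TUBB6 stood above TUBA1B. The quotient of translational efficiency over occupancy ran from 1.20 in TUBB6 to 23.1 in TUBB4B, beside a median of 7.72 over 6912 genes.

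Most of these reads fell on sequence that another gene also holds. The share of CDS reads at codons whose 28-nt footprint occurs exactly in a transcript of another gene was 94.3% in TUBB2A, 94.1% in TUBA1B, 90.6% in TUBB2B, 89.4% in TUBA1C and 87.2% in TUBA1A. It was 51.5% in TUBG1, 47.1% in TUBB6 and 39.8% in TUBB4B. The inverse of a step gives the abundance of an mRNA in total RNA as it entered the normalization. Relative to TUBA1B it was 46.1% ± 1.56 for TUBB4B (SD, n = 3), 22.9% ± 0.776 for TUBA1C, 22.4% ± 0.583 for TUBA1A, 7.95% ± 0.193 for TUBB6, 5.41% ± 0.361 for TUBG1, 5.19% ± 0.230 for TUBB2B and 2.74% ± 0.104 for TUBB2A. TUBB2A, the least abundant of the 8 mRNAs, had the highest occupancy, with 89.7% of its reads at codons where TUBB2B held equal numbers. Whether the abundances and the translational efficiencies themselves hold reads of other genes was not tested.

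**Figure D4:**
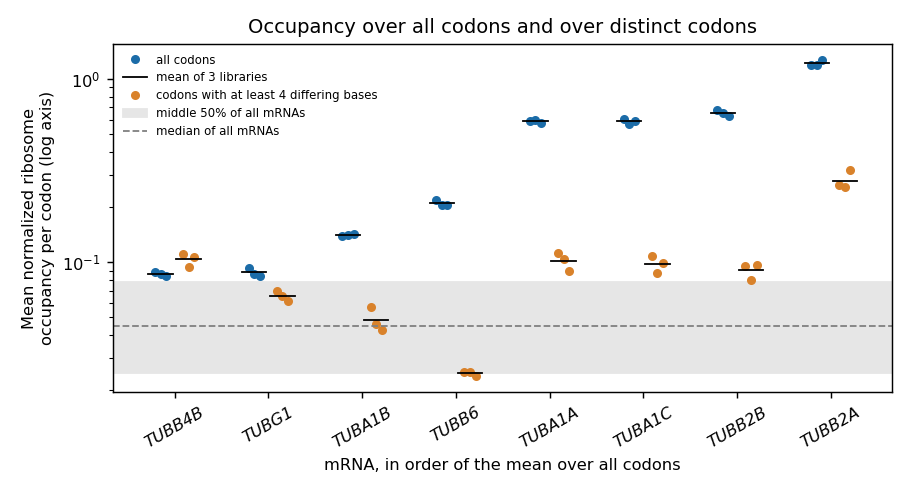
Mean normalized ribosome occupancy per codon (log axis) of the 8 measured tubulin mRNAs over all codons (blue) and over codons whose 30-nt window differs by at least 4 bases from every other tubulin gene of the family (orange). TUBA8 and TUBAL3 were left out of the comparison of windows. Points are the 3 libraries, short lines their mean, the dashed line is the median of all mRNAs and the grey band their middle 50%. TUBB6 falls from 0.210 to 0.0247, below the median of all mRNAs, whereas TUBB4B goes from 0.0861 to 0.104. The distinct codons of TUBB4B include codon 212, among its 3 highest.

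Occupancy was therefore also read at distinct codons, those whose window differs by at least 4 bases from every other tubulin gene of the family. The alpha-tubulin genes TUBA8 and TUBAL3 were left out of this comparison. There were 103 distinct codons in TUBB6, 90 in TUBB4B, 81 in TUBG1, 25 in TUBA1C, 22 in TUBB2B, 20 in TUBA1A, 19 in TUBB2A and 6 in TUBA1B. The occupancy at distinct codons was 0.279 ± 0.0341 in TUBB2A (SD, n = 3), 0.104 ± 0.00875 in TUBB4B, 0.102 ± 0.0113 in TUBA1A, 0.0980 ± 0.0102 in TUBA1C, 0.0908 ± 0.00918 in TUBB2B, 0.0654 ± 0.00386 in TUBG1, 0.0484 ± 0.00749 in TUBA1B and 0.0247 ± 0.000775 in TUBB6. Compared with all codons, the value was lower by 8.49 times in TUBB6, 7.19 times in TUBB2B, 6.01 times in TUBA1C, 5.77 times in TUBA1A, 4.38 times in TUBB2A and 2.90 times in TUBA1B. Only TUBB4B was higher at its distinct codons. These include codon 212, among its 3 highest, which held 3239 of the 17815 reads at its distinct codons. Of the 8 mRNAs 7 remained above the all-mRNA median of 0.0450, and TUBB6 did not. That median is of means over the whole CDS, without such a selection of codons in the other mRNAs. With 3 differing bases as the minimum TUBA1B also fell below, at 0.0334, which leaves 6. Codons were also selected less strictly, as those whose 28-nt footprint occurs exactly in no transcript of another gene, which admits windows that differ by a single base. Over these codons the occupancy of TUBB6 was 0.128 ± 0.00425 (SD, n = 3), higher than 88.9% of all mRNAs and higher than TUBG1 at 0.0830 ± 0.00467, TUBB4B at 0.0721 ± 0.00264 and TUBA1B at 0.0611 ± 0.00347. TUBB2A had 0.411 ± 0.0207, TUBB2B 0.308 ± 0.0321, TUBA1A 0.295 ± 0.0291 and TUBA1C 0.246 ± 0.0189. All 8 mRNAs were above the all-mRNA median by this selection. The position of TUBB6 relative to that median therefore depended on how strictly codons were selected. At distinct codons the ranges of TUBB4B, TUBA1A, TUBA1C and TUBB2B overlapped, whereas in translational efficiency TUBA1C and TUBB2B stood above TUBB4B and TUBA1A without overlap. TUBB6 was the lowest by both measures. The quotient of translational efficiency over occupancy ran from 10.2 to 35.2 at distinct codons. The distinct codons of TUBA1B and TUBA1C lie mostly at the end of the CDS, with median positions of 449 and 438, so their values rest on small stretches.

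The distinct codons also separate the paralogs outside the 8 genes. TUBB3 had a mean CDS occupancy of 2.73 over all codons and of 0.0348 over 97 distinct codons, which held 112 reads. TUBG2 had 0.701 over all codons and 0.00950 over 81 distinct codons with 15 reads. TUBG1 had 0.0654 at its 81 distinct codons, which held 1186 reads. The order of TUBG1 and TUBG2 there was the reverse of that by translational efficiency.

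Along the CDS the beta mRNAs were loaded towards the 3′ end. The mean occupancy of the first 75 codons was divided by that of the last 75 codons in each library. The ratio was 0.199, 0.201 and 0.184 in TUBB2A, 0.219, 0.216 and 0.193 in TUBB2B, 0.325, 0.363 and 0.321 in TUBB4B and 0.125, 0.125 and 0.111 in TUBB6, all below the middle 50% of mRNAs (0.547 to 1.69, median 0.985). The alpha mRNAs lay near the median, with means over libraries of 0.953 ± 0.103 in TUBA1A (SD, n = 3), 0.918 ± 0.105 in TUBA1B and 0.772 ± 0.0800 in TUBA1C, and TUBG1 had 0.749 ± 0.114. In 0 of 8 tubulin mRNAs was the combined occupancy of the first window above that of the last, beside 49.1% of all mRNAs with a CDS over 300 nt. In library 2 the ratios of TUBA1A and TUBA1B were just above 1, at 1.05 and 1.01. The last window of each beta mRNA contains codons 382 and 413. By the median over each window instead of the mean, 5 mRNAs had the higher first window, among them TUBB4B, and over codons with unshared footprints 5 had, among them TUBB2A, TUBB2B and TUBB4B. The last window of TUBB2A and of TUBB2B then held only 6 codons and that of TUBA1B 14.

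**Figure D5:**
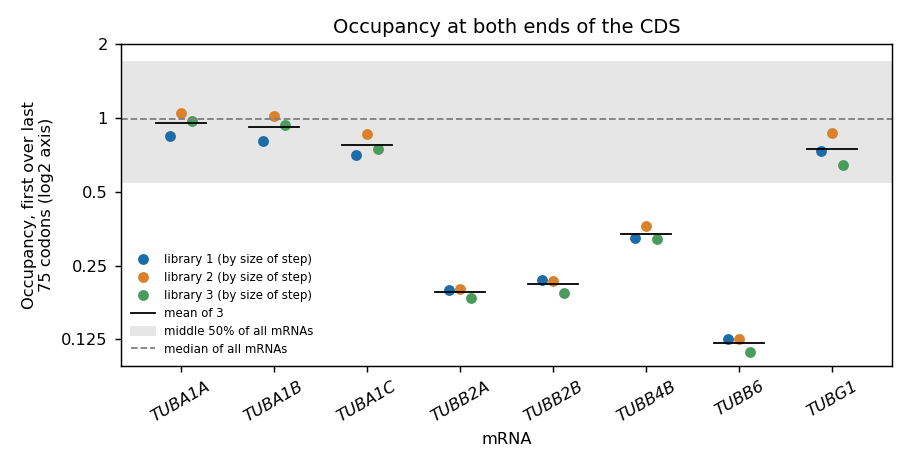
Ratio of the mean occupancy of the first to that of the last 75 codons (log2 axis) in the 8 measured tubulin mRNAs. Points are the 3 libraries, numbered by the size of their step, short lines their mean, the dashed line is the median of all mRNAs and the grey band their middle 50%. The 4 beta mRNAs lie below the band and the alpha mRNAs and TUBG1 lie within it.

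The CDS was also divided into 4 equal stretches. The last stretch held 60.4% of the occupancy of TUBB6, 59.0% of TUBB2A and 58.4% of TUBB2B but 35.1% of TUBB4B, which had 36.3% in the second stretch, around codon 212. In the alpha mRNAs the second stretch, with codon 119, held most, from 33.0% in TUBA1B to 34.1% in TUBA1C. TUBG1 had its largest share, 33.9%, in the first stretch, with codon 90.

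The start of the CDS is shown because its codons encode the residues that TTC5 recognises in alpha- and beta-tubulin. Capitals mark codons 2 to 4. In the alpha genes an intron splits these 30 nt, which are joined from exons 1 and 2 and span chr12:49580590-49582762 in TUBA1A, chr12:49523479-49525083 in TUBA1B and chr12:49658965-49663274 in TUBA1C. In the beta genes shown and in TUBG1 they lie in exon 1, at chr6:3157668-3157697 for TUBB2A, chr6:3227748-3227777 for TUBB2B, chr9:140135813-140135842 for TUBB4B, chr18:12308292-12308321 for TUBB6 and chr17:40761756-40761785 for TUBG1:
TUBA1A, TUBA1B and TUBA1C, codons 1 to 10: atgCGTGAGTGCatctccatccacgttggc
TUBB2A, codons 1 to 10: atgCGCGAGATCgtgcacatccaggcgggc
TUBB2B, codons 1 to 10: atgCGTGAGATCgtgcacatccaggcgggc
TUBB4B, codons 1 to 10: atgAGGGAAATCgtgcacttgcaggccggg
TUBB6, codons 1 to 10: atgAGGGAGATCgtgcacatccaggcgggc
TUBG1, codons 1 to 10: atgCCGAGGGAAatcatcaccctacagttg

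The first 10 codons held 2271 reads in TUBA1C, 2034 in TUBA1B, 1899 in TUBB4B, 1498 in TUBA1A, 527 in TUBB6, 352 in TUBB2B, 343 in TUBB2A and 78 in TUBG1. Many of these reads cannot be assigned to 1 gene. From codon 6 to codon 10 the alpha mRNAs held equal reads in every library, with 231, 220 and 151 at codon 10. From codon 3 to codon 10 TUBB2A and TUBB2B did so too, with 42, 38 and 18 at codon 10. Their mean occupancy was 0.163 in TUBA1A, 0.0495 in TUBA1B, 0.244 in TUBA1C, 0.292 in TUBB2A, 0.165 in TUBB2B, 0.101 in TUBB4B, 0.158 in TUBB6 and 0.0348 in TUBG1. In TUBB4B this was above its mean over the CDS, and in the other 7 it was below. TUBB4B held 1106 of its reads at codon 2. At the start codon, where windows reach into the 5′UTR and differ between paralogs, TUBA1C held 775 reads, TUBA1B 329 and TUBA1A 30.

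Few in-frame reads lay outside the CDS. TUBA1A held 1786 in its 5′UTR (0.720% of its reads), and 1659 of them were at a single codon position 22 codons before the start. TUBB2B held 269 reads there, TUBA1B 191, TUBA1C 47, TUBB4B 40 and TUBG1 5. TUBB2A held 0 of 61891 reads and TUBB6 0 of 30979, which allows a share of up to 0.00485% and 0.00968%, for counting error only. These totals include CDS reads on sequence that another gene also holds, 94.3% in TUBB2A, 87.2% in TUBA1A and 47.1% in TUBB6. Shares of the reads of the gene itself could therefore be larger. Distinct codons held 1925 reads in TUBA1A, 841 in TUBB6, 591 in TUBB2A and 424 in TUBB2B. Across all mRNAs 77.1% had some in-frame occupancy in the 5′UTR. The 3′UTRs held from 0 to 9 reads.

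Genes that fold, nucleate, modify or bind tubulin were described from lists by their translational efficiency. Of the folding cofactors and prefoldin, which bring new tubulin chains to the chaperonin and assemble the heterodimer, 10 of 12 measured genes were above the median of all genes and 2 below (median 1.04), beside 44.7% above and 44.6% below over all genes, with PFDN2 at 6.26 ± 0.631 (SD, n = 3) and PFDN4 at 4.11 ± 0.277 the highest and TBCB at 0.194 ± 0.00943 and TBCEL at 0.0751 ± 0.00771 the lowest. The gamma-tubulin ring complex, to which TUBG1 belongs, had 3 of 11 above and 7 below (median 0.284), from MZT1 at 14.5 ± 0.981 and TUBGCP3 at 0.819 ± 0.0262 to NEDD1 at 0.149 ± 0.0199 and TUBGCP6 at 0.0749 ± 0.00252. Of the tubulin autoregulation genes, TTC5 had 0.409 ± 0.0240 and did not pass the test, while CNOT11 was above the median at 0.870 ± 0.00920. Enzymes that modify tubulin tails had 3 of 7 above and 4 below (median 0.192), from the tyrosine ligase TTL at 0.938 ± 0.0276 and TTLL12 at 0.612 ± 0.0177 to AGTPBP1 at 0.108 ± 0.00577 and AGBL5 at 0.0468 ± 0.00256. Microtubule associated proteins had 10 of 25 above and 12 below (median 0.385, as over all genes), from the plus-end protein MAPRE1 at 6.54 ± 0.0853 and STMN1, which sequesters heterodimers, at 1.93 ± 0.0293 to the severing enzyme SPAST at 0.0648 ± 0.00654 and CAMSAP1 at 0.0585 ± 0.00433.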

How the data were processed

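The authors removed adapters, PCR duplicates (by molecular identifiers), rRNA and tRNA from RPF reads according to the methods, aligned them to the hg19 transcriptome with Bowtie and kept reads of 28 to 30 nt with periodicity. The submitters' processing notes name cutadapt 1.16, Bowtie 1.1.2, TopHat2 2.1.1 and HTSeq 0.9.1. For total RNA the methods name Hisat2 as the aligner, not TopHat2, and which was used for the deposited values is not known. The rule for counting reads that match several genes is not stated in the methods or labels. The authors deposited translational efficiency as a ratio, read here as RPFs over total RNA, per gene and replicate without stating its formula, and normalized occupancy per codon with the 3 libraries combined. The depth of whole libraries was not analysed here.

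To test translational efficiency, log2(value + 0.01) was fitted with limma 3.58.1 (R 4.3.3) without a filter, setting every gene against the overall median, two-sided, with Benjamini-Hochberg adjustment over 8121 genes and an FDR of 0.05. RPFs and total RNA with the same replicate number share a lysate per the methods, so the pairing is within the deposited ratio. Between replicates, log2 ratios correlated over genes at Pearson's r of 0.987, 0.988 and 0.989.

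Reads were recovered from the occupancy values by solving for whole multiples of 3 steps, scaled so that the mean over libraries equals the deposited value. In 31 mRNAs of the whole table, none of them a tubulin, a broken line was rejoined. Sequences and positions are from GENCODE 44 lifted to GRCh37, with transcripts matched by symbol and CDS length. Both computations were tested on data made with known answers. The window start of 12 nt before the codon was chosen after comparing it with the 13 nt of the methods on these data, and the limits of 4 and 3 differing bases were also chosen after seeing the data. Pseudogenes entered the comparison of sequences only through exact matches of 28 nt. The members, lists and tests were chosen with earlier results of these data known. The text names all members, the other tubulin genes with values, the 2 highest and 2 lowest genes of each list and the 3 highest codons of each mRNA. TUBA8, in the occupancy table only, had steps too alike to order its libraries and is not reported. Python 3.11.15, numpy 2.4.6 and matplotlib 3.10.9 were used.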

Additional observations from a re-analysis of the deposited data

How the results depend on the processing

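The counts of 7 tubulin genes above and 1 below the median translational efficiency were the same with a pseudocount of 0.1, with none, with a filter on a mean of at least 0.1, against the mean of all genes and without any 1 replicate (7 to 7 and 1 to 1). The fit with a replicate block, in which each replicate's own median was removed, also gave 7 and 1 and changed no call. In all, 64 of 64 single-gene values kept their direction and call under these alternatives. The number of mRNAs above the median occupancy was 8 by the median over codons, without the first and last 15 codons, without the highest codon, against long mRNAs and over unshared footprints, and 7 and 6 over codons with at least 4 and 3 differing bases, which were added after seeing the data. The number of mRNAs with more occupancy in the first window, 0 with 75 codons and also without the 5 codons next to start and stop, was 3 with windows of 50 codons (the alpha mRNAs), 1 with windows of 100 codons (TUBG1), 5 by the median over the window and 5 over codons with unshared footprints. With windows from 13 nt before the codon 98.4% of 1155 codon pairs of equal window had equal reads. Leaving out a library was not run for occupancy, whose values per library are given. The occupancy of single mRNAs moved by more than its SD under each selection of codons except with at least 3 differing bases in TUBB4B (0.0879) and TUBG1 (0.0886). With that minimum it was 0.0758 in TUBA1A, 0.0990 in TUBA1C, 0.270 in TUBB2A, 0.115 in TUBB2B and 0.0282 in TUBB6.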
